A study of Drosophila melanogaster with 15 samples.

Results

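The vacuolar ATPase genes of Drosophila melanogaster were followed across 15 RNA sequencing libraries of sorted testis cells. The set was every gene of the count table whose symbol starts with Vha, which gave 33 of 17408 genes. A library is 1 sequenced sample, and the 15 libraries fall into 5 groups of 3. Of the 33 genes, 28 had enough counts for a test and 5 did not, namely Vha100-4, Vha100-5, Vha16-2, Vha16-4 and VhaM9.7-a. The 28 passed partly through the groups in which they were abundant.

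All flies were males that carried tj-Gal4, which drives transgenes in the somatic cyst lineage of the testis, together with UAS-GFPnls, and the GFP-positive cells were purified by fluorescence-activated sorting. WT flies had a second UAS-GFPnls copy and served as the control. Chinmo flies carried UAS-5'UTR-chinmo-3'UTR to express the transcription factor Chinmo, with tub-gal80TS, a temperature-sensitive repressor of Gal4. Upd flies carried UAS-Upd, a ligand of the JAK/STAT pathway, and UAS-GFP. Ci flies carried UAS-Ci5Ncm5 and UAS-Ci5m30, transgenes of the Hedgehog effector Ci. The flies labelled chinmo RNAi carried UAS-chinmoRNAi (HMS00036) and UAS-dcr2, a helper of RNA interference. They were 2 or 3 days past eclosion, and the flies of the other 4 groups were 10 days past it, so RNAi, UAS-dcr2 and age cannot be told apart in that group. A sample pooled the testes of 50 to 100 males. The labels do not state that libraries within a group had separate biological origins, and the p-values therefore cover the spread among these libraries alone, which may be technical.

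The vacuolar ATPase, or V-ATPase, is a rotary proton pump that acidifies lysosomes, endosomes and secretory vesicles. Its cytosolic V1 sector, subunits A to H, hydrolyses ATP, and its membrane sector V0, subunits a, c, c'', d and e, carries the protons across. In flies most subunits have 1 gene that is used in many tissues, and several have further isoform genes, a number of which are known from surveys of adult tissues to be transcribed mainly in testis. An isoform here is a separate gene for the same subunit, named by the number or letter after the last hyphen.

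Counts per library summed to between 1143049 and 2943120 over all genes. Libraries Chinmo 3 and chinmo RNAi 2 stood apart, with a count for 4983 and 8109 genes against 9355 to 13229 in the other 13. The chinmo transcript was not lower in the libraries labelled chinmo RNAi (61.4 to 147 CPM, counts scaled to the effective library size) than in WT (69.8 to 75.2 CPM), so those libraries are named by their label only. The sorted cells were checked against markers. The driver's own gene tj stood at 0.475 to 16.9 CPM in WT, at 0 in Chinmo 3 and at 200 to 246 CPM in Upd. The cyst stem cell gene zfh1 stood at 10.9 to 23.6 CPM in WT and 372 to 544 CPM in Upd, and eya of differentiating cyst cells at 216 to 342 CPM in WT and 11.6 to 62.7 CPM in Upd. Transcripts of germ cells, which the sort should remove, were present. The 14 spermatocyte and spermatid markers summed to 3566 to 6493 CPM in WT and 67.0 to 127 CPM in Upd, and the spermatid gene Mst77F alone to 746 to 1243 and 8.73 to 20.8 CPM. In bulk samples, fewer cells of a type and less RNA per cell cannot be told apart.

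The members lay on all the large chromosome arms of the BDGP6.54 annotation, with 12 on 3R, 8 on 2R, 6 on 2L, 5 on 3L and 2 on X. Isoforms that neighbour each other differed widely in level. Vha68-2, an A subunit of V1, occupies bases 12974322 to 12978607 of 2L on the plus strand, and Vha68-3 starts 178 bases after it on the same strand, yet WT libraries had 447 ± 102 CPM of the first and 78.3 ± 27.2 CPM of the second (mean ± SD, n = 3 for these and later group values). Vha100-2 and Vha100-4, a subunits of V0 on the minus strand of 3R, are 517 bases apart, with 167 ± 42.8 CPM and 0.513 ± 0.889 CPM in WT. VhaPPA1-1 and VhaPPA1-2, for the c'' subunit on the minus strand of 3R, are 2052 bases apart, with 344 ± 58.9 and 27.2 ± 8.0 CPM. Whether reads were counted by strand is not given in the sources used here. Exons of Vha44 share 148 bases with Hmgs on the opposite strand, those of VhaPPA1-2 share 12 with CG3817 and those of Vha100-1 share 11 with Alg13, and VhaM9.7-c lies wholly within an intron of Teh2, so the counts of these genes are uncertain to that extent. The overlap is longer for 3 of the members that were not tested: antisense RNAs cover 503 of the 595 exonic bases of Vha16-2 and 527 of the 2918 of Vha100-5, and cona covers 47 of Vha100-4.

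Per kilobase of exon, the proteolipid gene Vha16-1, which encodes the c subunit of the rotor ring, had the highest level in WT at 596 ± 50.0 CPM per kb. Vha26, subunit E of the peripheral stalk, followed at 442 ± 47.6, and the accessory gene VhaM8.9, the fly ATP6AP2, at 379 ± 12.6 CPM per kb. VhaPPA1-1, at 255 ± 43.5, and the stalk subunit G gene Vha13, at 251 ± 43.1 CPM per kb, did not differ beyond their spread. The lowest of the genes that lead their family over all libraries were Vha100-1 for subunit a (46.7 ± 8.63), Vha44 for subunit C (45.3 ± 8.32) and VhaSFD for the regulatory subunit H (43.5 ± 5.10 CPM per kb), which overlapped each other. In WT itself Vha100-2 had the higher mean level of the subunit a genes, 167 CPM against 154 CPM for Vha100-1.

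For what follows the 33 genes were divided into 15 leading genes and 18 other isoforms. A leading gene is the only gene of its subunit or the family member with the highest mean level over all libraries. The choice thus drew on the levels compared below. Vha100-1 leads its family through the libraries labelled chinmo RNAi, with a mean of 439 CPM against 134 CPM for Vha100-2. In each other group Vha100-2 had the higher mean, as in WT with 167 against 154 CPM. The leading genes summed to 6408 ± 688 CPM in WT and the other isoforms to 595 ± 107 CPM. In each library the other isoforms held 6.75 to 11.02% of the Vha total in WT, 6.90 to 16.9% in Ci, 3.61 to 6.04% in Chinmo, 4.04 to 5.47% in Upd and 1.44 to 3.38% in the libraries labelled chinmo RNAi. The ranges of WT and Ci thus lay above those of the other 3 groups. Across all 5 groups, 22 of the 28 tested members differed (edgeR's quasi-likelihood F test, adjusted p under 0.05), where 46.9% of all tested genes did. The 6 without a call were Vha100-2, Vha14-1, Vha36-3, Vha68-1, VhaM9.7-c and VhaSFD.

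**Figure D1:**
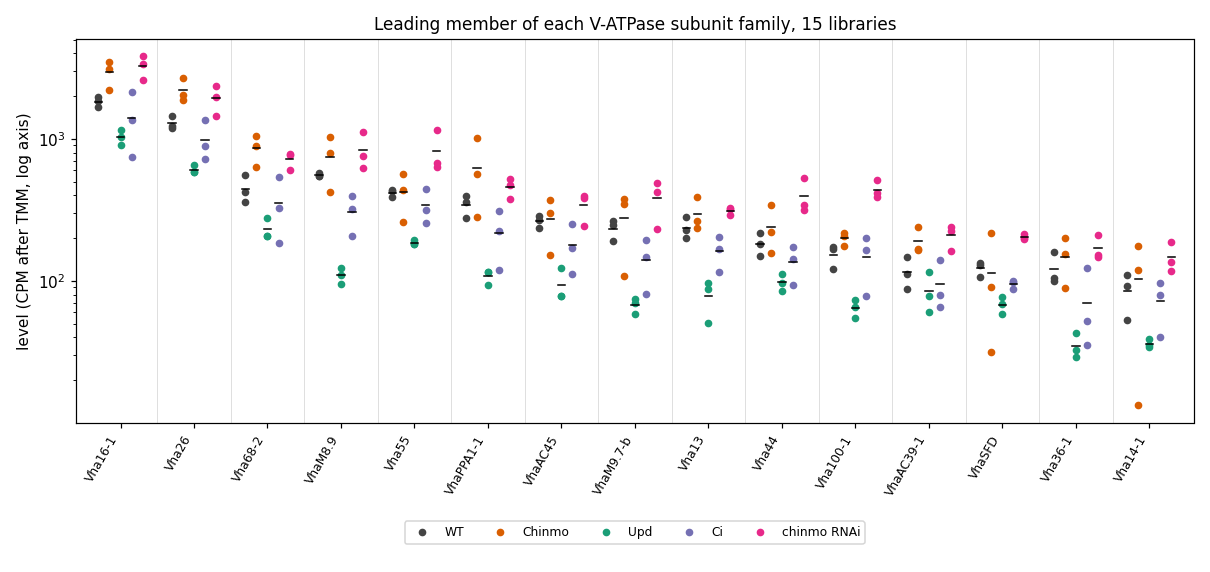
Level of each of the 15 leading V-ATPase genes in every library, in CPM after TMM scaling on a log axis; points are libraries, coloured by group, and short black lines are group means of 3. The Upd points lie below the WT points for every gene except VhaAC39-1, and 1 Chinmo point, library Chinmo 3, is far below the others for Vha14-1 and VhaSFD.

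Of the 4 comparisons with WT, that of Upd had the most members called. V-ATPase transcripts were lower: 15 of the 28 tested members fell and 0 rose, where 25.3% of all tested genes fell and 9.22% rose. The 15 were 9 leading genes and 6 other isoforms. The median log2 change of the 28 was -1.54, against -0.07 over all tested genes. By DESeq2 18 members fell and 0 rose, and at an unadjusted p under 0.05 edgeR gave 19 and 0. For 21 members every Upd library lay below every WT library, which held for 35.1% of all tested genes, and for 0 members above (32.3%). Of the 21, 14 were leading genes. The share of all counts that fell on Vha genes was 0.361 to 0.403% in Upd and 0.702 to 0.766% in WT.

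Among the V1 genes, Vha36-1 encodes subunit D of the central stalk that turns inside the catalytic head. Its level was 159, 100 and 104 CPM in WT and 42.7, 29.1 and 32.7 CPM in Upd, and it fell by 1.80 on the log2 scale (SE 0.53, edgeR adjusted p = 0.0112). The groups were separate, although the call was lost without Upd 2 (adjusted p = 0.0593) or Upd 3 (0.0510). Vha13 had 281, 201 and 229 CPM in WT and 50.7, 97.5 and 87.9 CPM in Upd, a fall of 1.59 (SE 0.40, edgeR adjusted p = 0.00358). Vha26 fell by 1.09 (SE 0.30, edgeR adjusted p = 0.00719), from 1453, 1190 and 1242 CPM to 658, 583 and 582 CPM. Every Upd library of these stalk subunits lay below every WT library.

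Vha55 encodes subunit B of the head, which does not carry the catalytic site. It stood at 434, 389 and 433 CPM in WT and 195, 181 and 181 CPM in Upd, a fall of 1.17 (SE 0.37, edgeR adjusted p = 0.0156), which was lost without Upd 2 (0.0604) or Upd 3 (0.0610). The catalytic subunit A gene Vha68-2 had 559, 358 and 425 CPM in WT and 279, 209 and 208 CPM in Upd. These libraries did not overlap either, but the log2 change of -0.95 (SE 0.37) missed the threshold, with an edgeR adjusted p of 0.0532, and was called without Chinmo 3 (0.00619), Ci 2 (0.0241), Ci 1 (0.0337) or Chinmo 1 (0.0466). Vha44 (-0.89), VhaSFD (-0.86) and the subunit F gene Vha14-1 (-1.23) also had negative log2 changes without a call (edgeR adjusted p 0.0985, 0.214 and 0.146), and all 3 were called when Chinmo 3 was left out (0.00829, 0.0205 and 0.00608). Chinmo 3 is in neither group compared but shares the fit, and without it the log2 changes themselves moved as well, to -1.05 for Vha68-2, -0.99 for Vha44, -0.96 for VhaSFD and -1.32 for Vha14-1.

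In the V0 sector, VhaPPA1-1 had 395, 280 and 359 CPM in WT and 116, 116 and 93.5 CPM in Upd. It fell by 1.67 (SE 0.43, edgeR adjusted p = 0.00431). VhaM9.7-b, which encodes the small subunit e, fell by 1.79 (SE 0.47, edgeR adjusted p = 0.00487), from 265, 247 and 190 CPM to 58.3, 69.8 and 74.2 CPM. Both genes were separate between the groups by a wide gap. Vha100-1, which encodes subunit a, the one that holds the proton hemichannels, had 173, 121 and 167 CPM in WT and 73.9, 54.7 and 66.1 CPM in Upd. Its fall of 1.24 (SE 0.41, edgeR adjusted p = 0.0207) was lost without Upd 2 (0.0976), Upd 3 (0.0699) or WT 3 (0.0672). Vha16-1, at 1986, 1678 and 1835 CPM in WT and 1158, 908 and 1032 CPM in Upd, just missed the threshold (log2 change -0.83, SE 0.33, edgeR adjusted p = 0.0517) and was called without Chinmo 3 (0.00565), Ci 2 (0.0115) or Ci 1 (0.0266). VhaAC39-1, for subunit d at the base of the rotor, was the 1 leading gene whose groups overlapped, with 147, 87.9 and 111 CPM in WT and 115, 78.9 and 60.2 CPM in Upd (log2 change -0.44, edgeR adjusted p = 0.478).

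Both accessory genes were lower in Upd, by different amounts. VhaM8.9 had 578, 545 and 547 CPM in WT and 109, 123 and 95.7 CPM in Upd. It fell by 2.35 (SE 0.38, edgeR adjusted p = 6.12e-05), the widest fall and the smallest p of the 15 leading genes. VhaAC45, the fly relative of the assembly factor ATP6AP1, had 267, 286 and 235 CPM in WT and 123, 78.2 and 78.9 CPM in Upd, a fall of 1.49 (SE 0.43, edgeR adjusted p = 0.00901) that was lost without Upd 2 (0.0521) or Upd 3 (0.0516).

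Of the other isoforms, some were nearly absent from Upd, some were retained and some lay between. Vha100-3 had 89.3, 81.2 and 89.7 CPM in WT, and 0.799, 0 and 0 CPM in Upd, where the 3 libraries held 2 counts in all. The ratio of the pooled counts was 370, with a 95% counting interval from 102 to 3059 (edgeR adjusted p = 2.34e-05). VhaM9.7-d, at 27.2, 74.4 and 46.5 CPM in WT, also had 2 counts in Upd, a ratio of 220.3 (60.5 to 1827, edgeR adjusted p = 0.000300). For Vha14-2, at 36.4, 86.7 and 40.8 CPM in WT, 2 counts in Upd gave a ratio of 244 (67.2 to 2026, edgeR adjusted p = 0.000413). Intervals cover counting error only. Vha68-3 fell by 6.08 (SE 0.98, edgeR adjusted p = 4.84e-05) from 55.9, 109 and 70.3 CPM to 2.80, 0 and 0.624 CPM. Vha36-2 and VhaPPA1-2 were down to 4 counts each in Upd, both in the library Upd 1, and fell by 6.60 and 5.61 (edgeR adjusted p 0.000480 and 0.00210). Without Upd 1 the fitted change of VhaPPA1-2 was -8.86. All 6 isoforms had at least 18.0 CPM in every WT library and at most 2.80 CPM in any Upd library.

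The isoforms that were retained in Upd were fewer. Vha100-2 had 211, 126 and 164 CPM in WT and 127, 71.5 and 101 CPM in Upd, which overlapped narrowly (log2 change -0.74, SE 0.49, edgeR adjusted p = 0.257). Vha68-1 stood at 27.2, 15.9 and 13.8 CPM in WT and 25.2, 23.5 and 24.9 CPM in Upd (0.37, SE 0.92, adjusted p = 0.788). VhaM9.7-c was at 1.03, 4.38 and 3.32 CPM in WT and 8.39, 9.12 and 4.05 CPM in Upd (1.27, SE 1.06, adjusted p = 0.378). Vha68-1 and VhaM9.7-c were the 2 members with a positive log2 change, and neither was called. Vha16-3, Vha16-5, Vha36-3 and VhaAC39-2 were placed in neither set. Their mean levels were 11.2, 9.25, 16.2 and 15.6 CPM in WT and 2.38, 5.66, 1.90 and 2.86 CPM in Upd. The log2 changes ran from -0.70 to -3.06 without a call (edgeR adjusted p 0.0899 to 0.715).

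The sum of the late germline markers moved with the 6 isoforms that were nearly absent: it was 67.0 to 127 CPM in Upd, with ProtA at 0, as given above. Not every marker of that list fell. The log2 changes of aly, can and topi, with WT means of 3.81, 7.39 and 9.90 CPM, were 0.37, -0.80 and -0.78 without a call (edgeR adjusted p 0.854, 0.639 and 0.652). The early germline markers went the other way (100.3 to 187 CPM in WT and 2414 to 2774 CPM in Upd), vas from 2.85 to 18.5 CPM in WT to 354 to 413 CPM and bam from 0 to 0.950 CPM to 19.2 to 28.7 CPM, as did the 7 cyst stem cell markers (263 to 314 and 2693 to 3302 CPM). The 5 markers of differentiating cyst cells summed to 356 to 492 CPM in WT and to 35.8 to 90.7 CPM in Upd. Muscle sheath markers summed to 191 to 243 CPM in WT and 10.9 to 19.6 CPM in Upd, and hemocyte markers to 246 to 449.6 and 139 to 157 CPM. Among the latter, crq was lower in Upd (51.6 to 65.2 against 214 to 407 CPM) and srp higher (73.9 to 85.2 against 22.8 to 40.5 CPM). Hub markers, in Upd mostly CadN and upd1, summed to 101 to 180.2 and 606 to 674 CPM. The other hub markers went the opposite way, hh from 19.0 to 58.9 CPM in WT to 1.05 to 1.25 CPM and Fas3 from 39.9 to 114 CPM to 6.31 to 20.8 CPM. The 2 pigment cell markers summed to 28.2 to 52.2 CPM in WT and 205 to 229 CPM in Upd, where st was at 0 and w made up the sum. With the mean log2 level of the late germline markers as a covariate, which was chosen after seeing the data, 2 of the 28 members were still called lower and 14 of the 15 leading genes kept a negative log2 change. That mean was 2.09 to 2.57 in Upd and 5.77 to 6.63 in WT, so the fit cannot separate it from the group. The part of cell composition in these results was not tested.

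**Figure D2:**
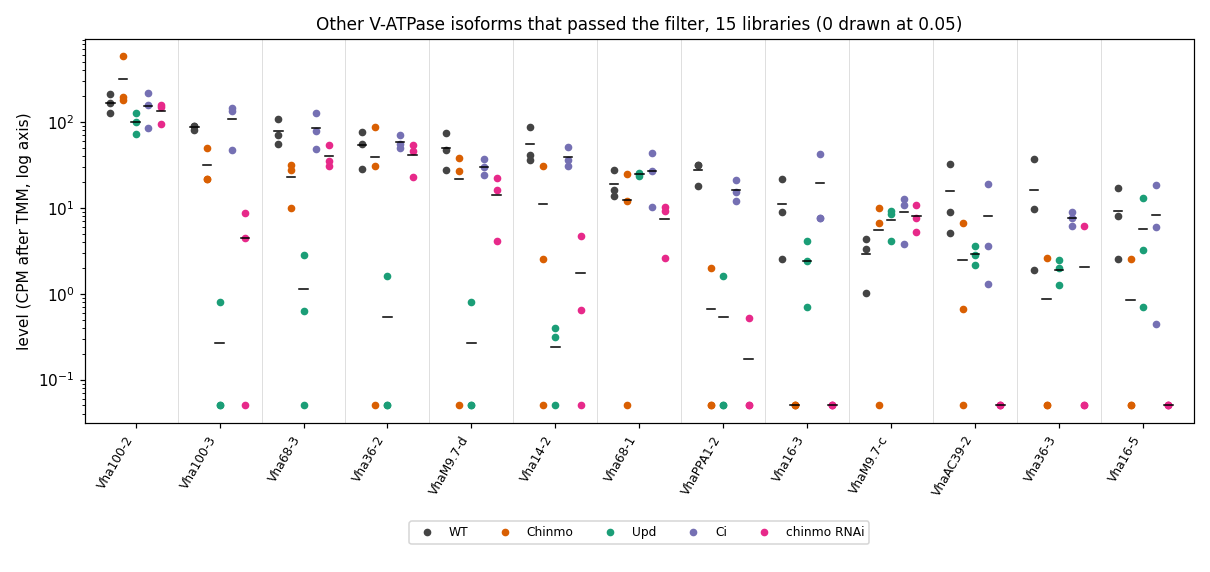
Level of the 13 other isoforms that passed the filter in every library, in CPM after TMM scaling on a log axis, with 0 drawn at 0.05; points are libraries and short black lines group means of 3. Vha100-3, Vha68-3, Vha36-2, VhaM9.7-d, Vha14-2 and VhaPPA1-2 have at most 2.80 CPM in Upd, and Vha16-3, VhaAC39-2 and Vha16-5 have no count in the libraries labelled chinmo RNAi.

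In the libraries labelled chinmo RNAi, 1 leading gene rose and 6 other isoforms fell. All 15 leading genes had a positive log2 change against WT, from 0.39 to 1.52 with a median of 0.71, and 12 of the 13 tested other isoforms had a negative one, with a median of -2.89. The median over all tested genes was -0.06. Of the 28 members 1 rose and 6 fell by edgeR, where 1.38% of all tested genes rose and 5.38% fell, and DESeq2 gave the same counts. With either germline score as a covariate 0 rose and 0 fell, and with library totals or without the filter 0 rose. At an unadjusted p under 0.05 the counts were 4 and 7. For 12 members every library lay above WT (15.3% of all tested genes) and for 9 every library lay below WT (20.8%). The direction of the leading genes was the same under the other 3 scalings tried (size factors, upper quartile, library totals), but 7 of the 15 turned negative with a germline score as a covariate. WT is shared with the comparison of Upd, so the comparisons are not independent.

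The member that rose was Vha100-1. It had 390, 414 and 513 CPM against 173, 121 and 167 CPM in WT, which is 1.52 higher on the log2 scale (SE 0.41, edgeR adjusted p = 0.0300). No library of the first group came near WT, but leaving out any 1 of the 6 libraries ended the call, with adjusted p from 0.0683 to 0.135. Vha44 had 317, 533 and 341 CPM (log2 change 1.12, adjusted p = 0.0950) and Vha55 635, 1161 and 676 CPM (0.98, 0.101), all above WT. Both were called by edgeR when Chinmo 3 was left out (0.0279 and 0.0370), at log2 changes of 0.93 and 0.77. Vha16-1, at 2618, 3816 and 3371 CPM, was above every WT library as well, with a log2 change of 0.83 and no call (adjusted p = 0.120).

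The 6 members that fell were isoforms of subunits a, F, c, d and c''. Vha100-3 had 4.49, 0 and 8.77 CPM against 81.2 to 89.7 CPM in WT and fell by 4.25 (SE 0.96, edgeR adjusted p = 0.0155). VhaPPA1-2 had 1 count in the 3 libraries, a ratio of 140.05 in pooled counts with a 95% counting interval from 24.8 to 5562 (edgeR adjusted p = 0.0151). Both calls were lost without chinmo RNAi 1 (0.0643 and 0.0630) or chinmo RNAi 2 (0.0663 and 0.0669). Vha14-2 had 0, 0.642 and 4.64 CPM and fell by 4.85 (SE 1.26, edgeR adjusted p = 0.0263), a call lost without WT 2, WT 3, chinmo RNAi 1 or chinmo RNAi 2 (0.0606 to 0.102).

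The remaining 3 had no count in the group. With 3 counts over the group as the limit, pooled WT counts gave a ratio of 28.5 for VhaAC39-2. Its WT levels were 5.13, 32.6 and 9.02 CPM (edgeR adjusted p = 0.0227). The ratio was 20.3 for Vha16-3 (WT 2.57, 21.9 and 9.02 CPM, edgeR adjusted p = 0.0246). For Vha16-5 it was 16.7 (WT 2.57, 17.1 and 8.07 CPM, edgeR adjusted p = 0.0454). These ratios are not minimum folds, since the 95% counting intervals started lower, at 22.8, 16.1 and 13.2 for these 3 genes in turn. WT 2 was the highest WT library for each, and without it the edgeR adjusted p was 0.0912, 0.0912 and 0.136. VhaAC39-2 and Vha16-3 were also not called without chinmo RNAi 1 or chinmo RNAi 2, nor Vha16-3 without WT 3 or chinmo RNAi 3, and the call of Vha16-5 was lost without any of 9 libraries.

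Vha36-2 and Vha68-3, which were nearly absent from Upd, were present here. Vha36-2 had 46.2, 23.1 and 53.7 CPM, against 28.2, 76.4 and 55.1 CPM in WT, and the groups overlapped (log2 change -0.38, edgeR adjusted p = 0.858). Vha68-3 had 54.5, 30.8 and 35.1 CPM, all below WT (log2 change -0.96, adjusted p = 0.477). Calls were gained for Vha36-3 without chinmo RNAi 3 (from -2.89 to -8.15, adjusted p = 0.0386) and for VhaM9.7-d without Chinmo 3 (0.0491). The late germline markers summed to 2225 to 3522 CPM in these libraries, below the 3566 to 6493 CPM of WT, with aly and comr at 0. The 4 hemocyte markers summed to 729 to 833 CPM against 246 to 449.6 CPM in WT, of which the scavenger receptor gene crq made up 604 to 711 CPM, whereas the defining markers Hml and NimC1 stood at 0 to 10.3 and 0 to 3.21 CPM and srp at 112 to 200.5 CPM (22.8 to 40.5 CPM in WT). The 4 hub markers summed to 472 to 523 CPM, against 101 to 180.2 CPM in WT, of which hh and Fas3 made up nearly all (hh 177 to 202 against 19.0 to 58.9 CPM, Fas3 258 to 322 against 39.9 to 114 CPM). The hub gene upd1 stood at 1.28 to 6.71 CPM (1.42 to 9.75 in WT), and CadN, which is also in the cyst stem cell list, at 2.57 to 29.9 CPM (8.55 to 22.1 in WT). Their part in the result was not tested.

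**Figure D3:**
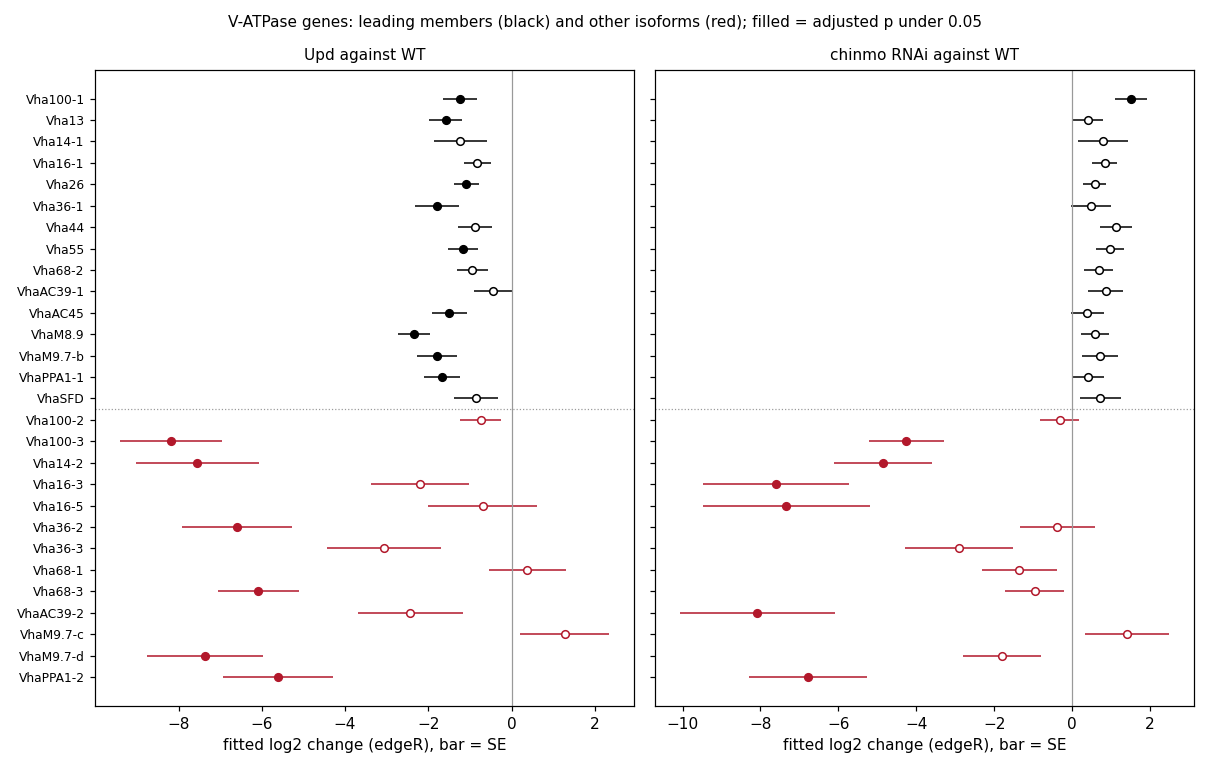
Fitted log2 change of the 28 tested members against WT in Upd (left) and in the libraries labelled chinmo RNAi (right), with bars of 1 SE; black marks the 15 leading genes, red the 13 other isoforms, and filled points have an edgeR adjusted p under 0.05. The leading genes lie left of 0 in Upd and right of 0 in chinmo RNAi, and all filled red points lie left of 0. Vha100-1 counts as leading only through its level in chinmo RNAi. Both panels share the WT libraries, and fitted values of genes with almost no counts depend on the prior count of the fit.

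Isoform use was compared as the share of each member in the counts of its family, a measure within a library that no scaling between libraries alters. Of 8 families with more than 1 gene, 7 had at least 20 counts in every library. An exact permutation test over the divisions of the 15 libraries into 5 groups of 3, adjusted over the 7, found a difference in the share of the leading gene for Vha100, Vha36, Vha68 and VhaPPA1 (adjusted p = 0.0357 for each, with group means that spanned 40.7, 45.5, 22.6 and 8.36 percentage points) and none for VhaM9.7 (0.0645), VhaAC39 (0.197) and Vha16 (0.219). The first 4 calls were fragile: all were lost without Chinmo 2, Ci 3, WT 3, or any Upd or chinmo RNAi library, those of Vha36, Vha68 and VhaPPA1 also without Chinmo 3, those of Vha68 and VhaPPA1 without Chinmo 1, and those of Vha36 and Vha68 without Ci 2, with adjusted p of at most 0.0885. Without Ci 1, VhaM9.7 (23.5 points, 0.0279) and Vha16 (4.47 points, 0.0411) passed, as did VhaM9.7 without WT 1. On a log2 ratio scale Vha16 (0.00410) and VhaAC39 (0.00866) passed and Vha36 did not (0.0611), per exonic length VhaM9.7 passed (0.0424), and with a replicate block Vha100 and Vha36 did not (0.0506). Against WT alone no share can pass the threshold, since 3 against 3 libraries allow no p under 0.1 in an exact two-sided permutation test.

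The subunit a family had 3 isoforms at high shares in WT. There, Vha100-1 held 37.6 ± 1.77%, Vha100-2 40.6 ± 3.35% and Vha100-3 21.6 ± 2.98% of the family counts. In the libraries labelled chinmo RNAi, Vha100-1 held 75.6 ± 5.39% and Vha100-2 22.8 ± 4.28%, with Vha100-3 at 0.697 ± 0.647%. The Vha100-1 shares there, 70.8 to 81.4%, lay far above the 36.4 to 39.7% of WT (exact permutation p = 0.1, the smallest possible). In Upd, Vha100-3 held 0.130 ± 0.226% and Vha100-2 59.2 ± 3.05%, while the Vha100-1 share of 39.3 ± 3.45% overlapped WT. In Chinmo the Vha100-1 share was 39.7 ± 12.6%, where Chinmo 3 stood at 25.7%. Ci had 34.9 ± 8.25% Vha100-1 and 28.4 ± 17.3% Vha100-3, and its library Ci 2 had the highest Vha100-3 share of all, 44.3%. These genes encode different a subunits of one pump, and isoforms of subunit a are known in other organisms to direct it to different membranes.

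The catalytic A subunit came mostly from Vha68-2 in every group. Its share was 81.6 ± 6.65% in WT, 95.6 ± 3.37% in Chinmo, 93.6 ± 2.92% in the libraries labelled chinmo RNAi, 89.9 ± 0.917% in Upd and 73.0 ± 13.9% in Ci. Chinmo, chinmo RNAi and Upd did not overlap WT, whereas Ci did. The remainder went to different isoforms. In WT and Ci it was mostly Vha68-3, at 15.01 ± 6.98% and 20.2 ± 10.8%, and in Upd it was mostly Vha68-1, at 9.66 ± 1.30% against 0.392 ± 0.468% for Vha68-3.

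For subunit D, Vha36-1 held 64.1 ± 16.9% in WT and 93.6 ± 2.37% in Upd, which did not overlap. Ci had 48.1 ± 15.7%, with Vha36-2 at nearly the same share, 46.1 ± 14.1%. Chinmo (83.2 ± 18.1%) and chinmo RNAi (80.3 ± 5.73%) overlapped WT. For subunit c'', VhaPPA1-1 held 92.4 ± 2.97% in WT and 91.6 ± 5.91% in Ci, and 99.5 to 100% as a mean in the other 3 groups, each separate from WT. For subunit F, which had too few counts for a test, Vha14-1 held 60.7 ± 19.98% in WT, 62.9 ± 16.8% in Ci, 92.8 ± 11.3% in Chinmo, 98.8 ± 1.81% in chinmo RNAi and 99.4 ± 0.551% in Upd.

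The remaining families were dominated by 1 gene. Vha16-1 made up 96.9 ± 4.08% of the c subunit counts in Ci and 98.7 to 100% in the other groups. VhaAC39-1 held 87.3 ± 12.7% of the d subunit counts in WT, and all of them in the libraries labelled chinmo RNAi. Within subunit e, VhaM9.7-b held 81.6 ± 7.75% in WT and 88.2 ± 5.02% in Upd. The rest of the family was mostly VhaM9.7-d in WT (17.1 ± 7.0%) and mostly VhaM9.7-c in Upd (9.51 ± 3.82%).

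Against WT, 0 members rose and 1 fell in Chinmo by edgeR, where 1.75% of all tested genes rose and 1.05% fell. At an unadjusted p under 0.05 the counts were 3 and 4. DESeq2 called 0 and 4, where it called 379 of all 15143 tested genes higher and 1155 lower. For 5 members every Chinmo library lay above WT (7.93% of all tested genes) and for 6 every one lay below (20.7%). The member that fell was VhaPPA1-2, with 0, 1.98 and 0 CPM, 3 counts in all, against 18.0, 31.8 and 31.8 CPM in WT. The ratio of pooled counts was 30.7 (95% counting interval 10.3 to 150.07), and the edgeR adjusted p of 0.04996 rose above the threshold when 13 of the 15 libraries were left out one at a time (0.0552 to 0.175). Without Chinmo 2 the fitted change of VhaPPA1-2 went from -4.97 to -8.91. Calls were gained for Vha14-2 without Chinmo 2 (from -2.24 to -5.13, adjusted p = 0.0289) and for Vha16-3, which had no count in Chinmo, without chinmo RNAi 2 (0.0445). Leading genes summed to 9646 ± 116 CPM in Chinmo and 14 of 15 had a positive log2 change, with a median of 0.39 where that of all genes was -0.32. That direction depends on the scaling: 10 of 15 were positive with size factors and 5 of 15 with library totals alone, and 4 of 15 with a germline score as a covariate. As a share of all counts, Vha genes made up 0.772% in Chinmo 1, 0.883% in Chinmo 2 and 0.533% in Chinmo 3, which lie on both sides of WT. Hemocyte markers summed to 534 to 942 CPM in Chinmo, with NimC1 at 0, against 246 to 449.6 CPM in WT. Of that sum crq made up 498 to 941 CPM, whereas srp stood at 0 to 61.9 CPM (22.8 to 40.5 in WT) and Hml at 1.32 to 1.67 CPM (1.99 to 10.9 in WT). Late germline markers summed to 2478 to 2792 against 3566 to 6493 CPM, and the 5 muscle sheath markers to 13.3 to 103 against 191 to 243 CPM. Their part in the result was not tested. Vha68-2 had 633, 893 and 1054 CPM, above every WT library, 0.94 higher on the log2 scale without a call (SE 0.37, edgeR adjusted p = 0.134).

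Set directly against Upd, Chinmo had 19 members higher and 0 lower by edgeR, where 24.2% of all tested genes were higher and 14.4% lower. By DESeq2 the counts were 19 and 1, and at an unadjusted p under 0.05 they were 20 and 1. The count higher was 7 with either germline score and 12 with library totals or only these 2 groups. The late germline markers summed to 2478 to 2792 CPM in Chinmo and 67.0 to 127 CPM in Upd, and the early ones to 58.2 to 114 and 2414 to 2774 CPM. For 16 members every Chinmo library lay above every Upd library (15.6% of all tested genes) and for 1 below (29.2%). All leading genes but Vha14-1 and VhaSFD were called. VhaM8.9 had 800, 422 and 1034 CPM in Chinmo against 95.7 to 123 CPM in Upd, 2.78 higher on the log2 scale (SE 0.39, edgeR adjusted p = 9.95e-06). VhaPPA1-1 was at 565, 284 and 1017 CPM against 93.5 to 116 CPM (2.52, SE 0.45, edgeR adjusted p = 0.000158). The 6 other isoforms called were Vha100-2, Vha100-3, Vha14-2, Vha36-2, Vha68-3 and VhaM9.7-d. Vha100-2 depended on Chinmo 3, with 182, 196 and 580 CPM in Chinmo, and its log2 change fell from 1.67 (edgeR adjusted p = 0.0121) to 0.76 (0.105) without that library. Vha14-2 depended on Chinmo 2, with 2.50, 30.3 and 0 CPM (log2 change 5.31, adjusted p = 0.00567, and 2.43, 0.227 without it). Without Upd 2, Vha100-2 was not called either (0.0647). The calls of Vha44, Vha55 and VhaAC39-1 were lost without Upd 2 (0.0617, 0.0549 and 0.135), without Upd 3 (0.0785, 0.0557 and 0.187). Vha44 was also lost without Chinmo 2 (0.0944), Vha55 without Chinmo 1 (0.0721), and VhaAC39-1 without any library but Ci 1. Without Chinmo 3, Vha14-1 (0.000973) and VhaSFD (0.0260) were called. Without Upd 1 the fitted change of Vha36-2 rose from 6.18 to 9.41.

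No member was called in Ci against WT: edgeR and DESeq2 gave 0 higher and 0 lower, and edgeR 0 and 1 at an unadjusted p under 0.05, where 0.00994% of all tested genes were called higher and 0% lower. Groups did not overlap for 0 members that were higher (6.35% of all tested genes) and 2 that were lower (5.8%). All 15 leading genes had a negative log2 change, from -0.05 to -0.86, and 1 of them turned positive with library totals alone. The libraries were far apart, since leading genes summed to 6671 CPM in Ci 1, 2956 in Ci 2 and 4528 in Ci 3. Of the leading genes VhaM8.9 had the lowest log2 change, -0.86 (SE 0.37), at 394, 206 and 323 CPM against 545 to 578 CPM in WT. The biological coefficient of variation over all genes was 65.3%. Ci 2 held the highest level of its group for 10 of the 17 other isoforms with a count, and WT 2 for 10 of 16.

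Between Upd and Ci, 9 members were lower in Upd and 0 higher by edgeR, where 23.5% of all tested genes were lower and 5.78% higher. DESeq2 called 11 and 0, the fit with the late germline score 0 and 0, and an unadjusted p under 0.05 gave 15 and 0. For 17 members every Upd library lay below every Ci library (33.2% of all tested genes) and for 0 above (31.5%). All 28 log2 changes were negative, although 1 leading gene and 1 other isoform turned positive with upper quartile scaling. The 9 comprised the leading genes Vha100-1, Vha13 and VhaM8.9 and the isoforms Vha100-3, Vha14-2, Vha36-2, Vha68-3, VhaM9.7-d and VhaPPA1-2. VhaM8.9 was at -1.49 on the log2 scale (SE 0.37, edgeR adjusted p = 0.00354). Vha100-3 had 46.8, 133 and 145 CPM in Ci and 2 counts in Upd, a ratio of 489 (95% counting interval 135 to 4040, edgeR adjusted p = 1.81e-05). Vha100-1 (adjusted p = 0.0289) was not called without Ci 1, Ci 3 or any Upd library (0.0634 to 0.138), nor Vha13 (0.0495) without 12 of the 15 libraries (0.0501 to 0.232). Without Upd 1 the fitted change of VhaPPA1-2 went from -4.87 to -8.12. Without Chinmo 3, which is in neither group, 18 members were called lower.

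The low members that were not tested had few counts throughout. Vha16-2, for subunit c, had no count in any library. Whether reads over its antisense overlap were left unassigned was not tested. Vha100-5 had 6 counts in 3 libraries, Vha16-4 had 39 in 7, VhaM9.7-a had 57 in 10 and Vha100-4 had 67 in 9. Vha100-4 had counts in all 3 Upd libraries (2.40, 1.05 and 3.43 CPM) and all 3 Ci libraries (3.12, 2.10 and 1.28 CPM), against 1.54, 0 and 0 CPM in WT. In the libraries labelled chinmo RNAi it stood at 5.77, 0 and 8.25 CPM. VhaM9.7-a also had counts in every Upd library, at 2.00, 1.40 and 0.935 CPM, and in every Ci library, at 0.445, 4.68 and 1.28 CPM. Its WT levels were 0, 0.398 and 1.90 CPM, and it was at 12.5 CPM in Chinmo 1 alone among the Chinmo libraries.

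Genes that work with the pump in the lysosome were counted beside it. The list of such partners had 34 genes in the table, of which 30 were tested. In Upd against WT 8 were lower and 0 higher, with a median log2 change of -0.45. The share lower was near that of all tested genes (25.3%, with 9.22% higher). Npc2a, a sterol carrier of the lysosome lumen, fell from 308 ± 32.3 to 4.80 ± 0.519 CPM, the lysosomal mannosidase LManII from 188 ± 71.5 to 3.90 ± 2.97 CPM, and the cathepsin B gene CtsB1 from 810.3 ± 80.0 to 82.9 ± 2.27 CPM. The other 5 were Cp1, cathD, Lamp1, Npc1a and CG31414. In chinmo RNAi against WT, where 1.38% of all tested genes were higher and 5.38% lower, 3 partners were higher and 0 lower: Npc2a reached 1043 ± 297 CPM (log2 change 1.76, edgeR adjusted p = 0.0109), the cathepsin L gene Cp1 3361 ± 141 CPM (1.18, 0.0192), and Npc1b, without a count in WT, 18.0 ± 2.55 CPM (0.0228). In Chinmo against WT 2 were higher and 0 lower (1.75% and 1.05% of all tested genes), Rab7 of the late endosome at 2.14 (edgeR adjusted p = 0.0316, 804 ± 724 against 182 ± 28.1 CPM) and the membrane glycoprotein gene Lamp1 at 1.51 (0.0491, 1533 ± 1224 against 538 ± 48.3 CPM), both with a wide spread in Chinmo. In Ci against WT edgeR called 0 and 0, with 1 and 2 at an unadjusted p under 0.05. Upd had 8 partners lower than Ci, a share near the 23.5% of all tested genes, with Npc2a, LManII and CtsB1 at log2 changes of -4.63, -5.12 and -2.55, and Chinmo had 15 higher than Upd (24.2% of all tested genes), with Npc2a, Cp1 and Lamp1 at 6.76, 2.81 and 4.15.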

How the data were processed

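Polyadenylated RNA from sorted testis cells was sequenced paired-end in 15 libraries, per the labels. The authors deposited whole-number counts per gene and a signal table, which holds those counts divided by 1 size factor per library. The submitters' processing notes list the tools STAR and HTSeq, with bcl2fastq, Picard and DESeq2, and as builds BDGP6 and dm6. Neither tool versions nor the strand setting were stated there. All results rest on the counts. Summary lines of unassigned reads were left out of library sizes: no_feature held 7.01 to 17.0% and ambiguous 13.5 to 26.8% of each library's summed table, those lines included. Members with near-identical copies or overlapping neighbours may lose or share reads.

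Genes were filtered with filterByExpr (10056 kept) and scaled by TMM. edgeR 4.0.16 in R 4.3.3 fitted 1 mean per group to all 15 libraries (robust quasi-likelihood), tested each gene two-sidedly and called a gene at a Benjamini-Hochberg adjusted p under 0.05, taken over the 10056 genes. The common dispersion was 0.427. Standard errors come from the F statistic. DESeq2 1.42.0, other scalings, filters, covariates, a replicate block and leaving out single libraries were alternatives. The edgeR step was tested on simulated counts with the means, dispersions and library sizes of these data, for Upd against WT. It recovered 0 of 95 genes changed 2-fold and 29 of 96 changed 8-fold, with 1 false call. Far fewer genes were changed there than were called in the data, which makes the adjusted threshold stricter. The recovery rates therefore do not carry over to the data. With 3 libraries per group, a missing call remains weak evidence that a gene did not change.

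Every Vha gene could be named, up to 3 partners with the smallest adjusted p in each comparison, and the markers vas, bam, Mst77F, fzo, tj, zfh1 and eya. The other 5 partners of the first comparison, single markers beyond these and chinmo were named after their values were seen. The level of fzo, a spermatid mitochondrial gene, was 85.7 to 153 CPM in WT and 6.66 to 15.9 CPM in Upd. Members and lists were chosen with earlier results of these data known. Positions and exon lengths are from the BDGP6.54 annotation.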

Additional observations from a re-analysis of the deposited data

How the results depend on the processing

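No log2 change with a call changed sign under any setting tried. Counts of called members in Upd against WT (15 lower) rose to 23 with only the 2 groups compared and fell to 2 with the late germline score (11 to 21 without single libraries). In Chinmo against WT the count lower (1) was 2 with upper quartile scaling or no filter, 4 by DESeq2, and 0 with only the 2 groups, either germline score or library totals, and ranged from 0 to 2 when single libraries were left out. Over all genes, 106 of 10056 were lower as reported, 182 of 10056 with upper quartile scaling, 392 of 15302 with no filter and 1155 of 15143 by DESeq2. With only the 2 groups or either germline score, 0 of all genes were lower. In chinmo RNAi against WT the count higher (1) was 4 with only the 2 groups and 0 with no filter, either germline score or library totals (0 to 3 without single libraries), and the count lower (6) was 0 with either germline score (0 to 7 without single libraries). In Upd against Ci the count lower (9) was 19 with only the 2 groups, 0 with the late score and 19 without Chinmo 3 and chinmo RNAi 2 together (7 to 18 without single libraries). In Chinmo against Upd the count higher (19) was 7 with either germline score and 12 with only the 2 groups or library totals (15 to 19 without single libraries), and the count lower (0) was 1 with size factors, DESeq2 or library totals. The late score, library totals and the joint omission were chosen after seeing the data. The late score was 2.09 to 2.57 in Upd and at least 4.15 in every other library, so fits with it cannot separate it from Upd. Except for Chinmo against WT, the shares of all genes called under each setting are not given here. Those counts of members are therefore not results particular to Vha genes. Scaling moved the median log2 change of all genes in Chinmo against WT from -0.32 (TMM) to -0.61 (size factors) and -0.76 (library totals), and in chinmo RNAi against WT from -0.06 to -0.34 and -0.30.

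For the isoform shares, the range of group means without single libraries was 37.8 to 44.7 points for Vha100, 40.8 to 54.6 for Vha36, 16.3 to 30.1 for Vha68, 7.53 to 10.7 for VhaPPA1, 12.8 to 23.5 for VhaM9.7, 8.88 to 17.3 for VhaAC39 and 1.31 to 4.47 for Vha16. Per exonic length VhaM9.7 passed the threshold (29.5 points, exact permutation adjusted p = 0.0424). As a log2 ratio to the other members, Vha16 (7.41, 0.00410) and VhaAC39 (6.18, 0.00866) passed and Vha36 did not (3.95, 0.0611). The cause was not tested. Replicate numbers gave no clear pairing of the samples. Over 30 pairs of libraries with the same number, deviations from the group means correlated at -0.0813 to 0.295, with 2 pairs above 0.1. Over 60 pairs from different groups with different numbers they correlated at -0.219 to 0.161, with 3 pairs above 0.1. Such correlations cannot exclude a shared batch. With the replicate number as a block, Vha100 (40.7 points) and Vha36 (45.5 points) had an adjusted p of 0.0506, and 0 members were called in Chinmo against WT. In that fit 11 of all 10056 genes were higher and 0 lower.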
